A study of Mus musculus with 8 samples.

Results

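The 9 genes Gata6, Gata4, Sox17, Sox7, Hnf4a, Pdgfra, Dab2, Cubn and Sparc are transcription factors, a receptor, endocytic proteins and a matrix protein of the primitive endoderm. They were followed through the regions of histone H3 lysine 27 acetylation (H3K27ac) assigned to them in mouse embryonic stem cells. A region belonged to a gene when the deposited table named that gene as its nearest and placed it within 100000 bases of the transcription start site (TSS). This rule took 27 of the 112137 regions, and all 9 genes had at least 1. Sparc had 9 regions, Gata6, Sox7, Dab2 and Hnf4a had 3 each, Gata4 and Cubn had 2 each, and Sox17 and Pdgfra had 1 each. Another 3 regions of Gata6 and Sox17 lay beyond the distance.

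H3K27ac marks promoters and enhancers in use. It was measured by CUT&Tag, in which an antibody directs a transposase to the marked chromatin. The 8 libraries formed 4 groups of 2: formative cells lacking MLL3 and MLL4 (genotype MLL3KO_MLL4KO, called DKO here), formative wild-type (WT) cells, naive DKO cells and naive WT cells. The formative groups had been without LIF2i for 63 hours, and the naive groups carry no treatment label. The WT cells were of the line R1, the labels of the DKO cells name no line, and replicates were cultured, collected and prepared independently. Kmt2c encodes MLL3 and Kmt2d encodes MLL4, histone H3 lysine 4 methyltransferases that act at enhancers. The design asks how H3K27ac moves between the pluripotent states and how it differs without these enzymes.

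Primitive endoderm is the extraembryonic epithelium that separates from the pluripotent epiblast in the blastocyst and later gives rise to the visceral and parietal endoderm of the yolk sac. FGF signalling through ERK induces Gata6, and Gata6, Gata4, Sox17 and Sox7 then act in sequence and together while Nanog is repressed. Embryonic stem cells stand for the epiblast, the sister lineage in which this programme is mostly off.

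The values for these regions are the authors' pooled levels, log2(value + 1), with 1 value per group and therefore no SD and no n. Library totals were not used here, so depth is unknown. DKO comparisons have no replicate check. The only replicated test is the authors' DiffBind comparison of formative with naive WT cells. Its p-values set the difference between the states against variation estimated from only 2 libraries a group. In bulk libraries, fewer cells with a mark and less mark per cell cannot be told apart. RNA and H3K4me1 columns in the same table come from libraries outside this series. In those RNA libraries Kmt2c had a log2 level of 4.30 in formative DKO against 5.21 in formative WT cells, and 4.46 in naive DKO against 5.61 in naive WT cells. Kmt2d had 4.31 in formative DKO against 5.16 in formative WT cells, and 4.13 in naive DKO against 4.86 in naive WT cells. Of the pluripotency markers, Nanog stood at percentile 96.7 and Sox2 at percentile 93.7 of the 9781 genes with RNA in naive WT cells, but Pou5f1 stood at percentile 40.8. Ranks between genes in these columns can therefore mislead. RNA folds are taken only within a gene, and percentiles and sums over genes are given as a description.

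Most of these regions were thinly covered. The mean over the 4 WT libraries was under 50 normalized reads in 15 of the 27 regions, against 36.7% of all regions, and 19 of the 27 lay below the median concentration of the table. The weakest was the region 56.8 kb upstream of Dab2, with a mean of 24.3 normalized reads. The strongest covered a Sparc start site, with a mean of 1128 normalized reads, and its concentration per kb stood at percentile 95.2 of all regions. The deposited level falls as about the square of region width (exponents of -1.97 in naive WT and -2 in formative WT cells), so levels are compared between groups within a region and not between regions.

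The table labels 12 of the regions intergenic, 12 intronic, 2 promoter and 1 exonic, and all coordinates are mm10. The 5 sequences that follow belong to regions on which the results turn: an upstream element of Gata4 and an element near Sox7 that rose in WT formative cells, the upstream and promoter regions of Dab2 that were listed at 0 in naive WT cells, and the Hnf4a intronic element with the largest DKO difference of that gene in formative cells. All are from GRCm38.p6 (mm10), plus strand. The Gata4 (chr14:63251306-63251605), Sox7 (chr14:63915871-63916170), Dab2 upstream (chr15:6242831-6243130) and Hnf4a (chr2:163511139-163511438) stretches are the central 300 bases of the region, and the Dab2 promoter (chr15:6386498-6386797) is the RefSeq window of 250 bases before to 50 after a start site. Capitals mark exact matches on either strand to the letters AGATAA of GATA factors, the letters ACAATG or the letters ACAATA of SOX factors, the letters ATGCAAAT of POU factors, or the letters GGAATG of TEAD factors.
Gata4 upstream element: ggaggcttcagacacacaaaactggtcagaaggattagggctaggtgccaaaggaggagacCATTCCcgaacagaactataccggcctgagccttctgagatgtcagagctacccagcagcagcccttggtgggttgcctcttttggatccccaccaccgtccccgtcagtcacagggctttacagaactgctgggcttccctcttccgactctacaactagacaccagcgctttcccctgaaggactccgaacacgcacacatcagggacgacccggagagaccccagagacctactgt
Sox7 element: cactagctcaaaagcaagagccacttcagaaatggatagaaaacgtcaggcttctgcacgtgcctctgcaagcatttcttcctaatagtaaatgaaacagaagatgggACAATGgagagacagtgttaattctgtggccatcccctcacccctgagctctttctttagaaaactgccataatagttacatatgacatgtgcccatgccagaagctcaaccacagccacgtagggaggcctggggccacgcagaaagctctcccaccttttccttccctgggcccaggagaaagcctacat
Dab2 upstream element: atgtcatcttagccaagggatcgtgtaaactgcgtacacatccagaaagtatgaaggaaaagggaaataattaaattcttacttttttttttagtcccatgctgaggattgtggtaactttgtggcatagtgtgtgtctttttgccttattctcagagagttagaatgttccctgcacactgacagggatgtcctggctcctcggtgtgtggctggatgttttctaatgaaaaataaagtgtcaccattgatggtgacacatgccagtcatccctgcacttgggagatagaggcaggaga
Dab2 promoter: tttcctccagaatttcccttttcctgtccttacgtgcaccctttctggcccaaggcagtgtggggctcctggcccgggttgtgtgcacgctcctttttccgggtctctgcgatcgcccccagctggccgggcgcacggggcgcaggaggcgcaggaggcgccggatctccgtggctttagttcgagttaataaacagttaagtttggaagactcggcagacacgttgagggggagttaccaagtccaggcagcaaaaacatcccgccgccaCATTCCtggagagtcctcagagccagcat
Hnf4a intronic element: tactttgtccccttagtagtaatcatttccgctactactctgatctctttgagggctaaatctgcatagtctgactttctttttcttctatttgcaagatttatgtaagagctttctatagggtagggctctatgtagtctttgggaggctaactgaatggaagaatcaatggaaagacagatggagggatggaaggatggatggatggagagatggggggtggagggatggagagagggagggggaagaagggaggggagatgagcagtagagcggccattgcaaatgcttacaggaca

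The Gata4 element and the Dab2 promoter each hold the reverse complement of GGAATG, the Sox7 element holds ACAATG, and the other stretches shown hold none of these letters. Over the central 300 bases of all 27 regions, AGATAA was found in 4 (12.2% of all regions hold it), ACAATG in 8 (13.4% of all), ACAATA in 1 (10.3% of all), ATGCAAAT in 0 (1.46% of all) and GGAATG in 6 (15.6% of all). RefSeq promoter windows were matched for 5 of the genes (Cubn, Dab2, Hnf4a, Pdgfra and Sparc), 7 windows in all. AGATAA was in 2 of them and GGAATG in 1, against 11.2% and 14.7% of all RefSeq promoters, and the other letters were in 0. The median GC content was 49% in these regions and 49% in all regions. A match is a description of letters and says nothing of binding.

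Gata6, the zinc-finger factor at the head of the primitive endoderm programme, had 3 regions upstream of its start and none at it. At 78.4 kb upstream (chr18:10973801-10974440, intergenic) the H3K27ac log2 level was 0.77 in formative DKO, 7.95 in formative WT, 6.69 in naive DKO and 9.04 in naive WT cells. At 16.2 kb upstream (chr18:11035830-11036752, within the gene 1010001N08Rik in GENCODE) it was 8.39 in formative DKO, 7.94 in formative WT, 5.88 in naive DKO and 4.50 in naive WT cells. At 12.4 kb upstream (chr18:11039332-11040822, in the same gene) it was 4.99 in formative DKO, 8.48 in formative WT, 6.82 in naive DKO and 6.60 in naive WT cells. The 3 regions thus ordered the groups differently: formative DKO was lowest of the groups at the far and near elements and highest at the middle one.

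Gata4, the related factor that acts after Gata6, had an element 6.2 kb upstream of the start used in the table (chr14:63250866-63252045), labelled intergenic there and inside the Gata4 gene in GENCODE. Its log2 level was 1.81 in formative DKO, 7.73 in formative WT, 0 in naive DKO and 4.00 in naive WT cells. A second element, 68.5 kb upstream (chr14:63313443-63314163), had 7.25 in formative DKO, 8.61 in formative WT, 0 in naive DKO and 7.55 in naive WT cells. Both Gata4 elements were highest in formative WT cells and were listed at 0 in naive DKO cells.

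Sox17 and Sox7 are SOX-family factors of differentiated primitive endoderm. Sox17 had 1 intergenic region, 63.4 kb upstream (chr1:4559600-4561919), with a log2 level of 6.70 in formative DKO, 7.46 in formative WT, 6.75 in naive DKO and 7.97 in naive WT cells. Its WT groups were both above its DKO groups. The 3 regions of Sox7 lay in introns of the neighbouring gene Pinx1. At 27.7 kb upstream of Sox7 (chr14:63915353-63916688) the log2 level was 5.56 in formative DKO, 8.12 in formative WT, 7.19 in naive DKO and 5.91 in naive WT cells. At 29.0 kb (chr14:63914240-63915121) it was 7.54 in formative DKO, 8.76 in formative WT, 7.33 in naive DKO and 7.95 in naive WT cells. The element at 39.7 kb (chr14:63903746-63904362) had 8.26 in formative DKO, 9.54 in formative WT, 8.15 in naive DKO and 8.61 in naive WT cells. Formative WT cells were the highest group at all 3 Sox7 regions.

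Hnf4a, a nuclear receptor of visceral endoderm and later of liver, had 3 intronic regions that also overlap the antisense gene Hnf4aos. The element 4.4 kb downstream of the start (chr2:163510629-163511948) had a log2 level of 2.57 in formative DKO, 7.04 in formative WT, 5.32 in naive DKO and 7.34 in naive WT cells. At 9.4 kb (chr2:163515666-163516920) the level was 6.03 in formative DKO, 7.53 in formative WT, 6.28 in naive DKO and 8.31 in naive WT cells. At 14.6 kb (chr2:163520443-163522524) it was 4.61 in formative DKO, 5.37 in formative WT, 5.14 in naive DKO and 6.59 in naive WT cells. In all 3 the order was the same, with naive WT highest, formative WT next, then naive DKO, and formative DKO lowest.

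Pdgfra, the receptor tyrosine kinase used as a surface marker of primitive endoderm, had 1 region, labelled promoter (chr5:75155629-75156466). It lay over a GENCODE exon and an internal transcript start. The gene starts at 75152292 in GENCODE, and its RefSeq promoter window (chr5:75152001-75152300) lay outside this region. The region is called the Pdgfra promoter below, after its label. Its log2 level was 8.06 in formative DKO, 8.52 in formative WT, 9.12 in naive DKO and 7.14 in naive WT cells. Naive DKO was the highest group there and naive WT the lowest.

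Dab2, an endocytic adaptor that also orders the primitive endoderm epithelium, had a region over an internal start site, labelled promoter (chr15:6386428-6387147). Its log2 level was 10.25 in formative DKO, 8.74 in formative WT and 10.01 in naive DKO cells, and it was listed at 0 in naive WT cells. The element 56.8 kb upstream (chr15:6242777-6243184) had 6.86 in formative DKO, 10.33 in formative WT and 7.84 in naive DKO cells and was also listed at 0 in naive WT cells. The third, 23.8 kb upstream (chr15:6275469-6276539), had 7.81 in formative DKO, 7.90 in formative WT, 7.09 in naive DKO and 6.76 in naive WT cells. Naive WT cells were therefore the lowest group at all 3 Dab2 regions.

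Cubn encodes cubilin, an endocytic receptor of visceral endoderm. Its intronic region 81.6 kb downstream of the start (chr2:13409796-13410675) had a log2 level of 10.73 in formative DKO, 8.90 in formative WT, 7.44 in naive DKO and 6.74 in naive WT cells. The region 23.0 kb upstream, in an intron of Trdmt1 (chr2:13514446-13515323), had 5.94 in formative DKO, 8.58 in formative WT, 3.20 in naive DKO and 7.80 in naive WT cells. DKO cells were above WT cells at the intronic element and below them at the upstream one, in both states.

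Sparc, a secreted matrix glycoprotein abundant in parietal endoderm, had 9 regions over chromosome 11. The largest (chr11:55412942-55420705, centred 3.3 kb downstream) spans the start site from which the distances are counted and the RefSeq promoter window (chr11:55420031-55420330). The gene starts at 55423183 in GENCODE, on the minus strand, outside this region. It is called the region over the start site below. The log2 level of this region was 6.48 in formative DKO, 5.60 in formative WT, 6.36 in naive DKO and 6.84 in naive WT cells. The intronic region at 14.4 kb (chr11:55404643-55406753) had 7.59 in formative DKO, 6.25 in formative WT, 7.25 in naive DKO and 7.87 in naive WT cells, and that at 9.7 kb (chr11:55409716-55411007) had 7.68 in formative DKO, 6.65 in formative WT, 8.05 in naive DKO and 8.40 in naive WT cells. Formative WT was the lowest group in these 3 regions within the gene. The region 36.1 kb downstream (chr11:55383321-55384557), beyond the 3′ end, ran the other way, with 6.58 in formative DKO, 7.87 in formative WT, 4.36 in naive DKO and 4.75 in naive WT cells. At 12.8 kb downstream (chr11:55406946-55407550) the level was 9.29 in formative DKO, 8.72 in formative WT, 6.85 in naive DKO and 8.38 in naive WT cells. At 18.3 kb upstream (chr11:55438071-55438768) it was 7.34 in formative DKO, 9.03 in formative WT, 8.75 in naive DKO and 8.12 in naive WT cells. Formative DKO was thus the highest group at the first and the lowest at the second. The other 3 Sparc regions, at 21.6 kb downstream and at 4.3 and 16.3 kb upstream, lay between 6.22 and 8.87 in every group.

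**Figure D1:**
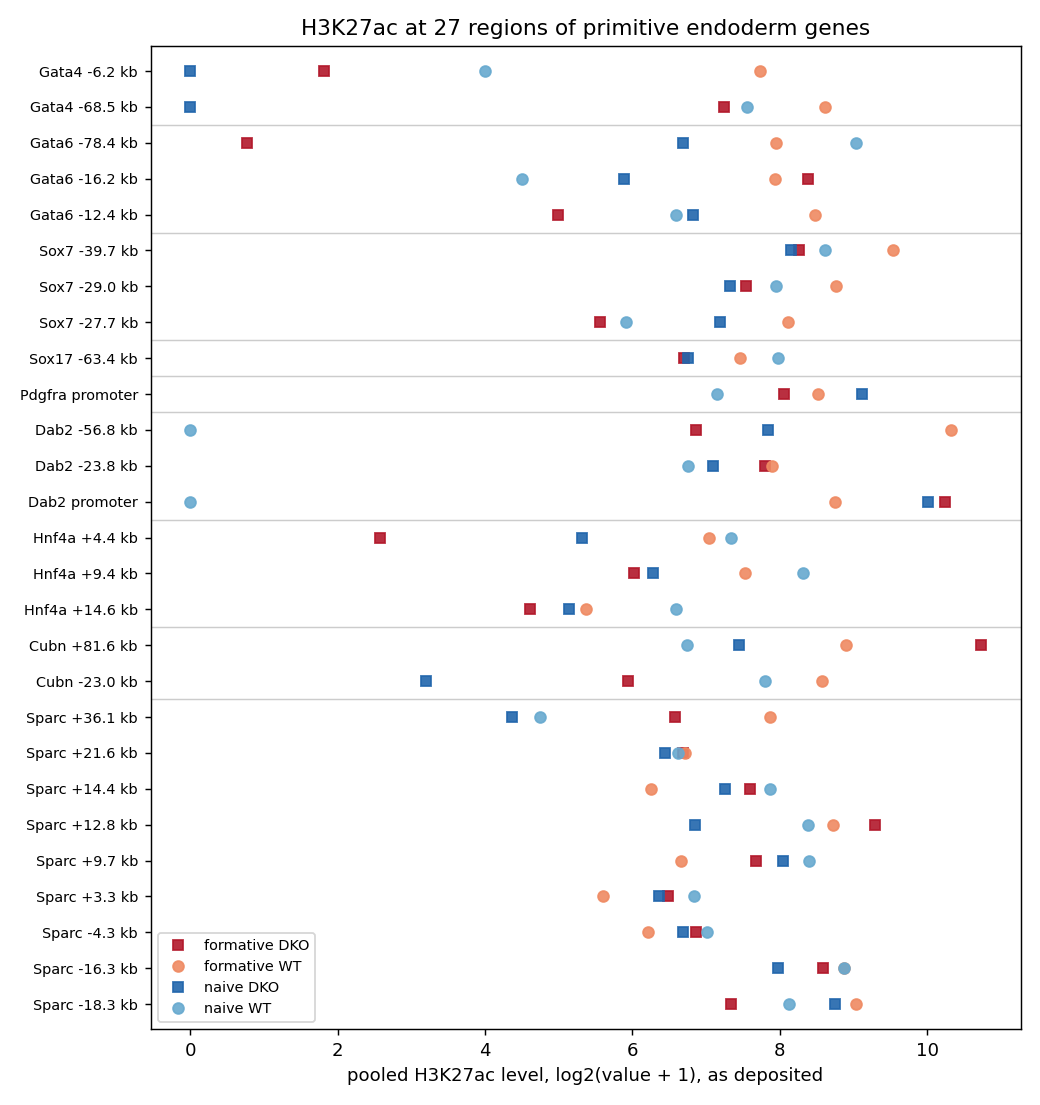
H3K27ac log2(value + 1) as deposited (x axis) at each of the 27 regions (rows, named by gene and distance in kb from the start site), with 1 pooled point per group and no error bar; squares are DKO and circles WT cells, in formative (red tones) and naive (blue tones) states. Points at 0 are the 2 Gata4 regions in naive DKO and the Dab2 promoter and 56.8-kb element in naive WT cells.

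In WT cells H3K27ac rose on entry into the formative state at elements of Dab2, Gata4, Gata6 and Sox7 and fell within the Sparc gene. The largest changes were at Dab2, where the authors' deposited table gave a DiffBind log2 fold of 6.02 at the promoter (adjusted p = 0.000219) and 5.99 at the 56.8-kb element (adjusted p = 0.000364). The Gata4 element at 6.2 kb rose by 3.68 on the log2 scale (adjusted p = 0.00136) in the authors' deposited table. At Sparc, the region over the start site had a log2 fold of -0.99 (adjusted p = 1.27e-06) in the authors' deposited table.

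Counted in the authors' deposited table at a DiffBind adjusted p under 0.05, 6 of the 27 regions rose, against 20.8% of all regions, and 3 fell, against 15.8% of all regions. These shares, 22.2% and 11.1%, are near the background. The authors' deposited table had a median DiffBind log2 fold of 0.88 over these regions and 0.56 over all regions. An unadjusted DiffBind p under 0.05 was given there for 11 of the 27 regions and for 50194 of all 112137 regions. The other regions that rose in the authors' deposited table were Gata6 at 16.2 kb (log2 fold 3.55, adjusted p = 0.0267), Sox7 at 27.7 kb (2.05, adjusted p = 0.00323) and Sparc at 36.1 kb (3.12, adjusted p = 0.0324). Sparc also fell at 14.4 kb (DiffBind log2 fold -1.36, adjusted p = 0.0256) and at 9.7 kb (-1.58, adjusted p = 0.033) in the authors' deposited table. By pooled values, with no test, 7 of the 23 regions above 0 in all groups were higher by at least 1 in formative than naive WT cells, against 38.1% of all such regions, and 5 were lower, against 18.9%.

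At Dab2 the fold rests on near-absence of reads in the naive libraries, where the log2 DiffBind concentration in the authors' deposited table was 5.62 in formative and -0.41 in naive WT cells at the promoter, and 5.58 in formative and -0.41 in naive WT cells at the 56.8-kb element. The same columns of the authors' deposited table gave 6.07 in formative and 2.39 in naive WT cells at the Gata4 element, and 6.74 in formative and 4.68 in naive WT cells at the Sox7 element. Sparc over its start site had 9.56 in formative and 10.56 in naive WT cells in the authors' deposited table.

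The remaining 18 regions did not pass in the authors' deposited table, with log2 folds between -1.11 and 2.02. Closest in the authors' deposited table were Gata6 at 12.4 kb (DiffBind log2 fold 1.78, adjusted p = 0.0649) and Cubn at 81.6 kb (2.02, adjusted p = 0.0697). The Pdgfra promoter had a DiffBind log2 fold of 1.46 (adjusted p = 0.125) in the authors' deposited table, and the Sox17 region -0.49 (adjusted p = 0.287). The 3 Hnf4a regions had DiffBind log2 folds of -0.49, -0.73 and -1.11 (adjusted p = 0.774, 0.535 and 0.14) in the authors' deposited table.

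**Figure D2:**
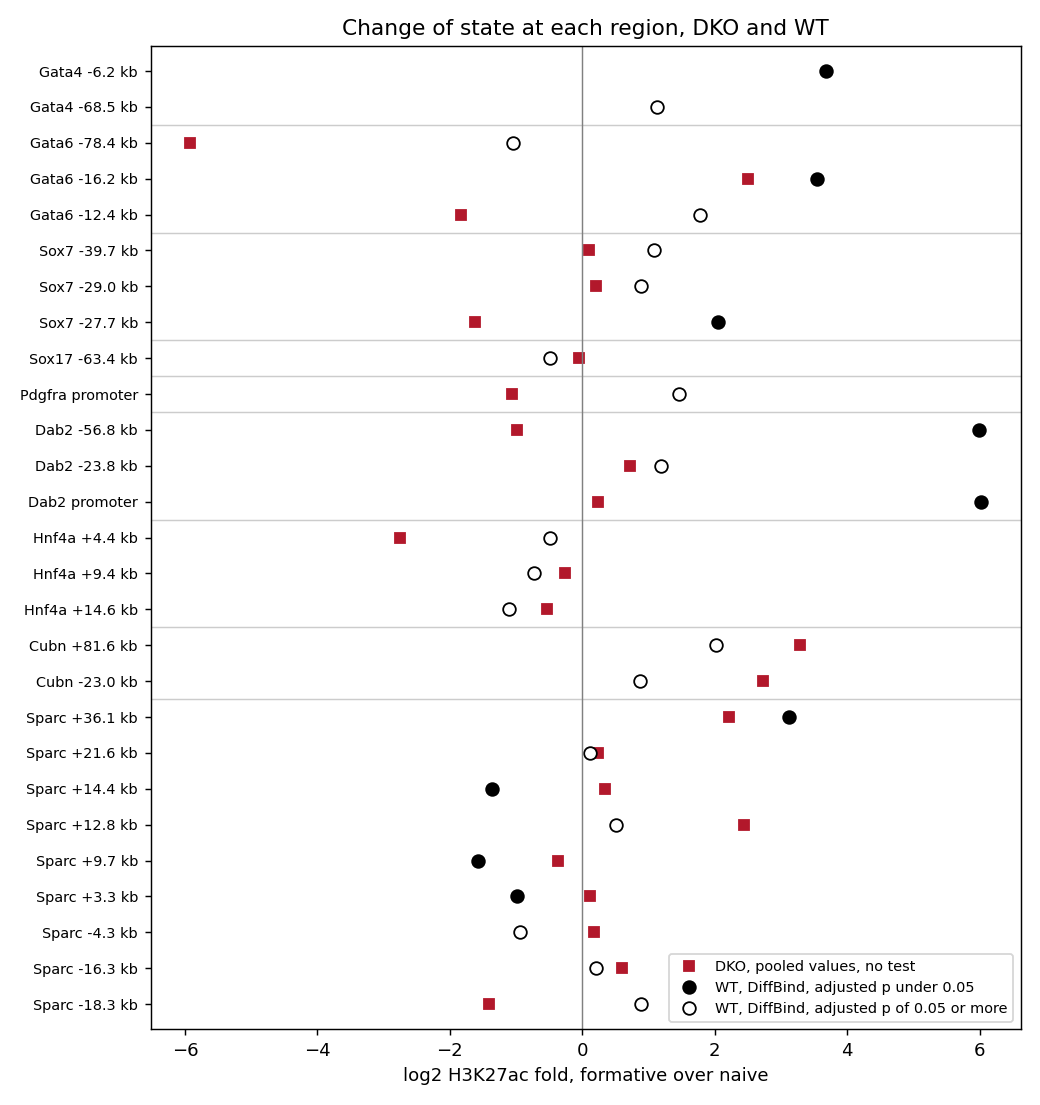
Log2 H3K27ac fold of formative over naive cells (x axis) at each region (rows); red squares are pooled DKO values with no test, and circles are WT DiffBind folds, filled where the adjusted p was under 0.05. The Dab2 promoter and its 56.8-kb element stand at 0.24 and -0.98 in DKO and at 6.02 and 5.99 in WT cells; Gata4 has no DKO point because naive DKO cells were listed at 0.

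In formative cells, by pooled values and a log2 fold of at least 1, DKO cells carried less H3K27ac than WT cells at both Gata4 elements, all 3 Sox7 elements, 2 of 3 elements each of Gata6 and Hnf4a, the 56.8-kb Dab2 element, the upstream Cubn element and 2 Sparc elements. They carried more at the other Cubn element, at another 2 Sparc elements and at the Dab2 promoter. The Gata6 element at 78.4 kb differed most of the 27, with a log2 fold of DKO over WT of -7.18, followed by Gata4 at 6.2 kb with -5.92, Hnf4a at 4.4 kb with -4.46 and Gata6 at 12.4 kb with -3.50. The Gata6 78.4-kb and Gata4 folds rest on formative DKO levels near the floor of the scale, 0.77 and 1.81. Coverage there was thin, with means of 33.6 and 36.3 normalized reads in WT libraries, so the size of these folds is uncertain. The element at 81.6 kb in Cubn had a log2 fold of 1.83.

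Of the 23 regions above 0 in all 4 groups, 10 were lower in formative DKO than in WT cells by at least 1 on the log2 scale, against 39.3% of all such regions, and 3 were higher, against 11.2%. The shares of 43.5% and 13% are near the background, and the median log2 fold was -0.76 over these regions and -0.63 over all regions. The lower regions were 2 of 3 at Gata6, all 3 at Sox7 (log2 folds -1.29, -1.22 and -2.55), 2 of 3 at Hnf4a (-4.46 and -1.51), 1 of 2 at Cubn (-2.64) and 2 of 9 at Sparc (-1.29 and -1.69). The higher regions were Cubn at 81.6 kb and Sparc at 14.4 kb (1.34) and 9.7 kb (1.03). Outside this count because of a 0 in a naive group, the Gata4 elements had log2 folds of -5.92 at 6.2 kb and -1.37 at 68.5 kb, and the Dab2 regions -3.46 at 56.8 kb and 1.50 at the promoter.

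The direction in formative cells depends on how DKO and WT are scaled to each other. The median of all regions was -0.63 as deposited, -1.26 with promoter medians made equal, 0.10 after quantile normalization and 0.02 after a loess offset. Higher regions made up 22.3% of all those called as deposited, 7.21% under the promoter scaling, 52.9% under quantile normalization and 50.0% under loess. Of the 13 regions called here, 8 came below the fold of 1 under at least 1 scaling, and Sparc at 36.1 kb changed sign under loess. The Gata6 elements at 78.4 kb (-7.81 to -3.65 over the 4 scalings) and 12.4 kb (-4.13 to -2.86), Hnf4a at 4.4 kb (-5.10 to -2.60), Sox7 at 27.7 kb (-3.18 to -1.78) and Cubn at 81.6 kb (1.20 to 2.27) kept their direction and stayed past the fold under every scaling tried. The scalings do not address the error of a single value at low coverage.

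In naive cells, by pooled values, the elements where DKO cells carried more H3K27ac than WT cells included the Dab2 promoter and 56.8-kb element and the Pdgfra promoter, and those with less included all 3 Hnf4a regions, Sox17 and upstream Cubn. The Dab2 promoter had a level of 10.01 in naive DKO cells and was listed at 0 in naive WT cells, so it has no fold. The Pdgfra promoter had a log2 fold of 1.98, and the 3 Hnf4a regions had -2.02, -2.03 and -1.45. Both Gata4 elements were listed at 0 in naive DKO cells.

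By the same threshold 7 of 23 regions were lower in naive DKO than in WT cells, against 26.3% of all regions, and 3 were higher, against 19.2%. The median log2 fold was -0.46 over these regions and -0.10 over all regions. Beside Hnf4a, the lower regions were Gata6 at 78.4 kb (log2 fold -2.34), Sox17 (-1.22), Cubn at 23.0 kb upstream (-4.60) and Sparc at 12.8 kb (-1.53). The higher regions were the Pdgfra promoter, Gata6 at 16.2 kb (1.38) and Sox7 at 27.7 kb (1.28). Promoter scaling moved the median of all regions to -0.67 and the scaling to equal sums moved it to 0.11, and higher regions made up 42.2% of all called as deposited, 20.9% and 52.0% under these scalings. Gata6 at 16.2 kb (0.81), Sox7 at 27.7 kb (0.70) and Sox17 (-0.88) came below the fold under a scaling, and none of the 10 changed sign. Of the 23 regions, 4 were lower by at least 1 in DKO cells in both states (Gata6 at 78.4 kb, Hnf4a at 4.4 and 9.4 kb, and upstream Cubn), against 14.1% of all regions. Another 3 were lower by that much in the naive state alone, against 12.3%, and 6 in the formative state alone, against 25.2%, and the difference between states was not tested. Both Gata4 elements, outside this count because naive DKO cells were listed at 0, were also below WT in both states.

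**Figure D3:**
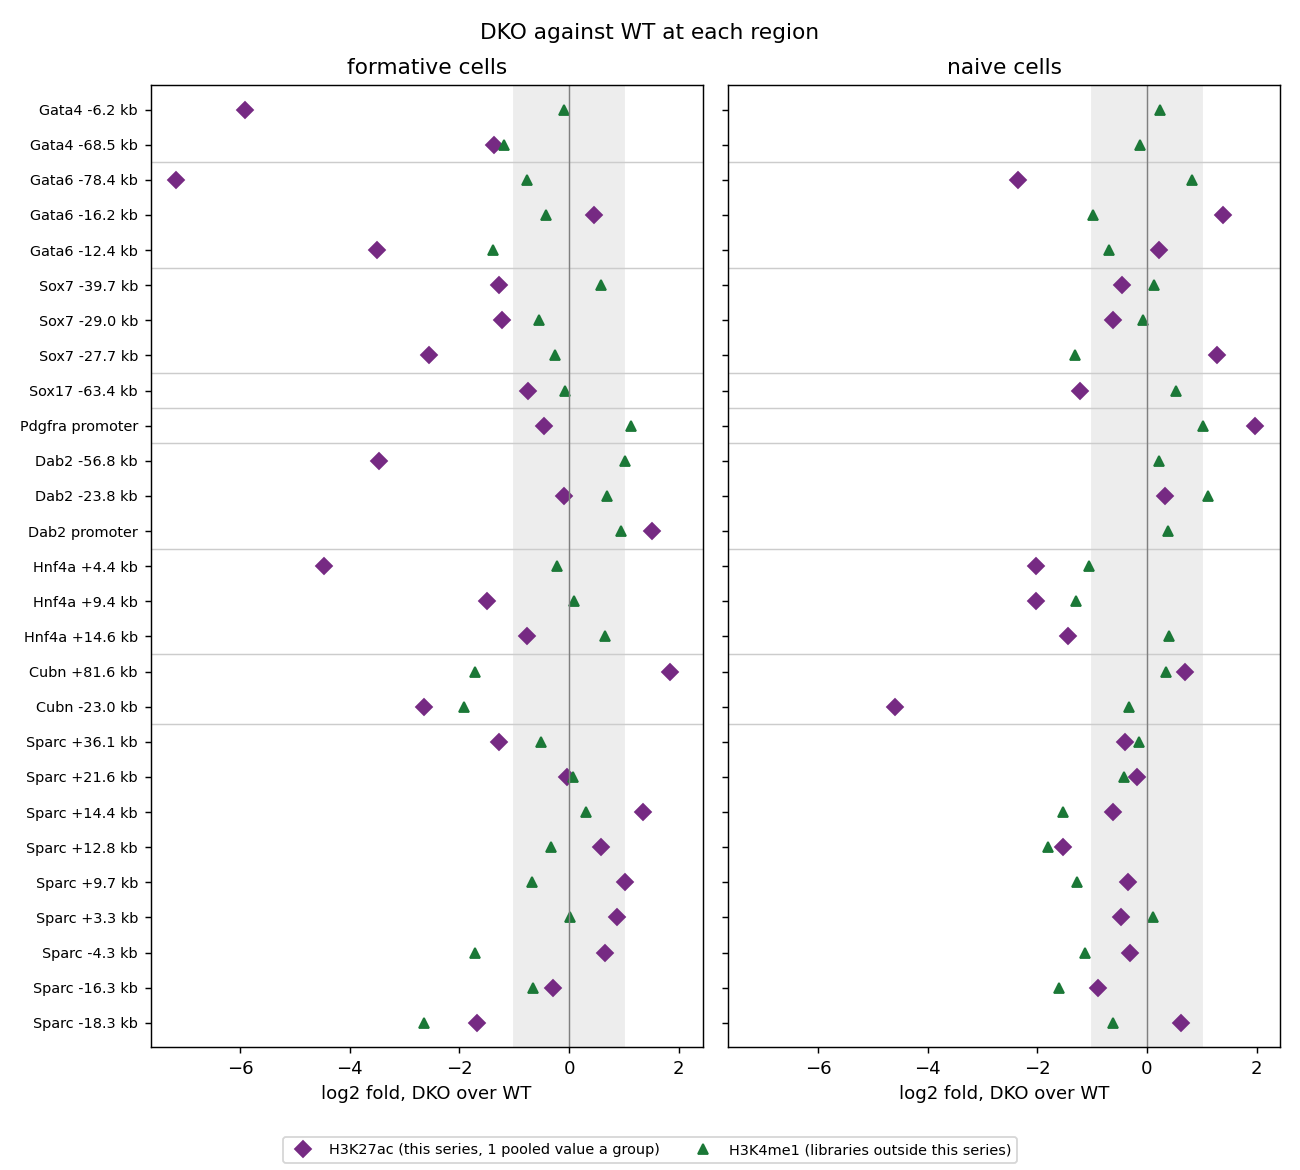
Log2 fold of DKO over WT (x axis) in formative (left) and naive (right) cells at each region (rows); diamonds are pooled H3K27ac and triangles H3K4me1 from libraries outside the series, with 1 value each, and the grey band spans log2 folds from -1 to 1. In formative cells the H3K27ac diamonds reach -7.18 at Gata6 while the H3K4me1 triangles stay between -2.64 and 1.13.

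DKO cells had, in the formative state, more H3K27ac at Cubn, at the Gata6 element 16.2 kb upstream and at part of Sparc, and less at Hnf4a 4.4 kb, the other Gata6 elements, Sox7 at 27.7 kb, Pdgfra and Sparc 18.3 kb upstream, again by pooled values. Cubn at 81.6 kb had a log2 fold of formative over naive of 3.29, Cubn at 23.0 kb 2.73, and Gata6 at 16.2 kb 2.50. At the other end Gata6 at 78.4 kb had -5.92 and Hnf4a at 4.4 kb -2.75, from low formative DKO levels of 0.77 and 2.57. In all, 5 of 23 regions were higher by at least 1, against 16.6% of all regions, and 6 were lower, against 17.9%, with a median log2 fold of 0.12 over these regions and -0.07 over all regions.

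The DKO and WT changes of state lay apart at several elements, given here side by side without a test. At the Dab2 promoter the pooled log2 fold in DKO cells was 0.24, against the DiffBind log2 fold of 6.02 in WT cells in the authors' deposited table. Gata6 at 12.4 kb had -1.83 in DKO cells and, in the authors' deposited table, 1.78 in WT cells. Sox7 at 27.7 kb had -1.62 in DKO and 2.05 in WT cells, and the Pdgfra promoter had -1.06 in DKO and 1.46 in WT cells, each WT value from the authors' deposited table. The Pdgfra value in DKO cells lay between -1.10 and -0.87 over the scalings, on both sides of the fold of 1. Gata6 at 16.2 kb and Sparc at 36.1 kb were higher in formative cells in both genotypes, with 2.50 and 2.22 in DKO cells and 3.55 and 3.12 in WT cells in the authors' deposited table.

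H3K4me1, the mark laid down at enhancers by MLL3 and MLL4 among others, was listed above 0 in DKO cells at every one of the regions. The same held for nearly all regions, with 111990 of 112137 above 0 in all 4 H3K4me1 groups. Log2 levels at these regions were 4.15 to 8.68 in formative DKO cells and 3.77 to 8.27 in naive DKO cells. In formative cells the Gata6 element at 78.4 kb, lower by 7.18 in H3K27ac, had an H3K4me1 level of 5.61 in DKO against 6.38 in WT cells. Hnf4a at 4.4 kb had 5.76 in formative DKO against 5.98 in formative WT cells, and the Gata4 element at 6.2 kb had 7.53 in formative DKO against 7.62 in formative WT cells. The Pdgfra promoter had more H3K4me1 in DKO cells in both states, with 8.68 in formative DKO against 7.55 in formative WT cells and 8.27 in naive DKO against 7.25 in naive WT cells.

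In formative cells 6 of the 27 regions were lower in DKO H3K4me1 by at least 1, against 16.0% of all regions, and 2 were higher, against 10.5%. Lower were Gata4 at 68.5 kb (log2 fold -1.20), Gata6 at 12.4 kb (-1.39), both Cubn regions (-1.71 and -1.92) and Sparc at 4.3 and 18.3 kb upstream (-1.72 and -2.64). In naive cells 8 were lower, against 18.7% of all regions, and 2 were higher, against 4.99%. Of the 8, 5 were at Sparc (-1.13 to -1.81), with Hnf4a at 4.4 and 9.4 kb (-1.06 and -1.30) and Sox7 at 27.7 kb (-1.32). The median H3K4me1 log2 fold of DKO over WT was -0.26 in formative and -0.15 in naive cells over these regions, and -0.02 in formative and -0.30 in naive cells over all regions.

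The marks overlapped in part. Of the 10 regions with lower H3K27ac in formative DKO cells, 7 had H3K4me1 within 1 on the log2 scale of WT, against 70.2% of all regions with such lower H3K27ac, and 3 were also lower in H3K4me1, against 22.5%. Of the 7 with lower H3K27ac in naive DKO cells, 4 had H3K4me1 within 1 of WT, against 63.5% of all such regions, and 3 were also lower, against 33.7%. Over the 23 regions the DKO folds of the 2 marks had a Pearson r of 0.14 in formative and 0.09 in naive cells (0.23 and 0.27 over all regions). These correlations are across regions that share libraries and, at Sparc, a gene, and are given as a description. Cubn at 81.6 kb went opposite ways in formative cells, with a log2 fold of 1.83 in H3K27ac and -1.71 in H3K4me1.

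RNA was listed for Gata6, Dab2 and Sparc among these genes, with 1 value a group and no error; for the other 6 no RNA value was used here. It came in 4 genotypes named DKO, dCD, CKO and WT in the table, of which dCD and CKO are not spelled out in the sources used here. Dab2 RNA was higher in naive DKO than in naive WT cells. By percentile of the deposited levels Gata6 RNA was low and Sparc RNA high in every group, with the limit on ranks between genes given above.

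Dab2 had a log2 RNA level of 4.04 in DKO, 4.57 in dCD, 3.11 in CKO and 3.79 in WT formative cells. In naive cells it had 4.64 in DKO, 5.63 in dCD, 1.34 in CKO and 1.79 in WT cells. The log2 fold over naive WT was thus 2.85 in DKO and 3.84 in dCD, and -0.45 in CKO. In formative cells the same folds were 0.25 in DKO, 0.78 in dCD and -0.68 in CKO. Formative over naive, Dab2 was higher by 2.00 in WT and 1.77 in CKO, and the fold was -0.59 in DKO and -1.06 in dCD cells. Naive WT and naive CKO cells were the low groups. In H3K27ac, the Dab2 promoter stood at 10.01 and the 56.8-kb element at 7.84 in naive DKO cells, and both were listed at 0 in naive WT cells.

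Gata6 RNA had log2 levels of 0.26 in DKO, -0.50 in dCD, -1.0 in CKO and -0.76 in WT formative cells, and of -0.54 in DKO, 0.36 in dCD, -0.45 in CKO and -1.59 in WT naive cells. The lowest level listed for any gene was -2.29, and Gata6 lay between percentiles 2.84 and 14.0 of genes. Naive WT was the lowest group, and the log2 folds over it were 1.05 in DKO, 1.95 in dCD and 1.14 in CKO naive cells. The read numbers behind these levels are unknown.

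Sparc RNA had log2 levels of 8.79 in DKO, 8.15 in dCD, 8.54 in CKO and 8.56 in WT formative cells, and of 8.21 in DKO, 8.97 in dCD, 9.61 in CKO and 8.90 in WT naive cells. It stood between percentiles 95.0 and 98.8 of genes. Its DKO over WT folds were 0.23 in formative and -0.69 in naive cells, and its WT fold of formative over naive was -0.34, beside the fall of H3K27ac over its start site.

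By a log2 fold of at least 1, 2 of these 3 genes were higher in naive DKO than WT cells, against 8.54% of all genes with RNA, 2 in naive dCD (8.05% of all), 1 in naive CKO (3.85% of all) and 1 in formative DKO (5.87% of all). Formative over naive, 1 of 3 was higher in WT, against 17.1% of all genes, and 1 in CKO, against 16.7%. Lower were 1 in dCD, against 8.71%, and 1 in CKO, against 8.70%. With 3 genes these counts support no statement about a group.

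Across the 8 RNA groups the mean standardized profile of Gata6, Dab2 and Sparc was most like that of Cdan1 (Pearson r = 0.98), Rai14 (0.96), Birc3 (0.95), Taf6l (0.94) and Gpn3 (0.93). The profile followed Gata6 (0.96) more than Dab2 (0.57) or Sparc (0.30). Gata6 with Dab2 had r = 0.63, Gata6 with Sparc 0.13 and Dab2 with Sparc -0.59. These likenesses are over 8 single values that share their libraries, and no p is given.

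**Figure D4:**
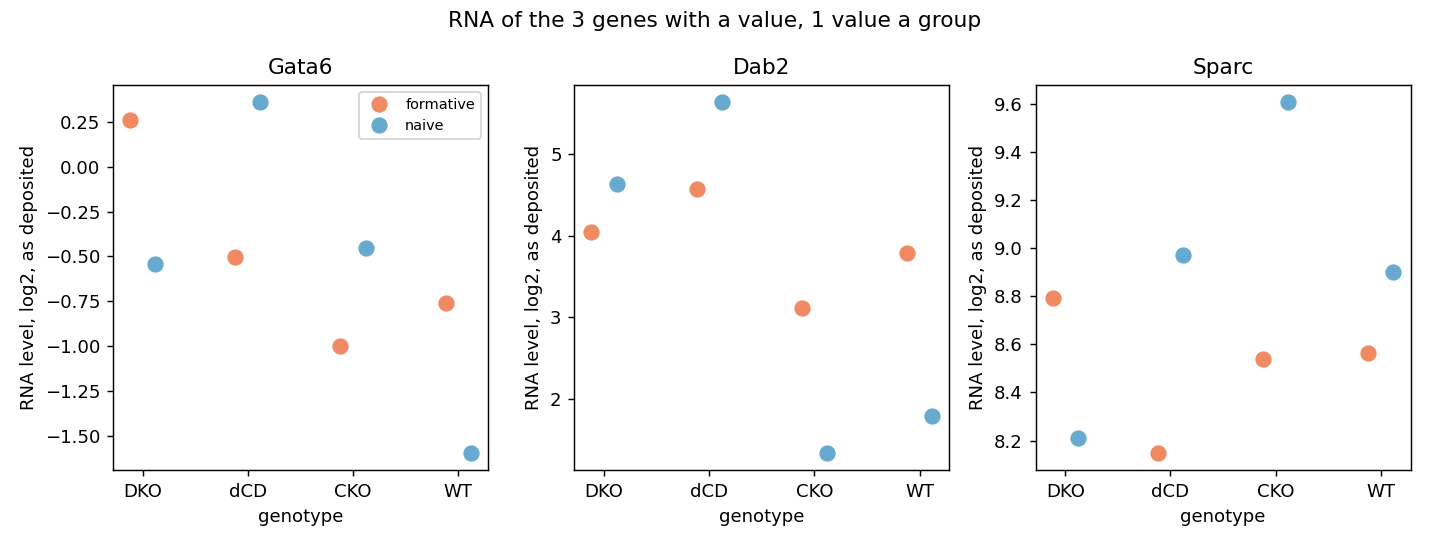
Log2 RNA levels as deposited (y axis, its own scale in each panel) of Gata6, Dab2 and Sparc in the 4 genotypes (x axis), in formative (orange) and naive (blue) cells, with 1 value per group and no error. Dab2 is at 4.64 in naive DKO and 5.63 in naive dCD cells, against 1.34 in naive CKO and 1.79 in naive WT cells.

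Other primitive endoderm genes were counted from a list of 32, of which 27 had regions, 238 in all. In WT cells 82 of these 238 regions rose, against 20.8% of all regions, and 46 fell, against 15.8%, by the authors' deposited table, with a median DiffBind log2 fold of 1.02 beside 0.56 over all regions. By gene, 13 had regions that only rose, 6 only fell, 5 both and 3 neither. In the authors' deposited table Amn, the membrane partner of cubilin, rose at 14 of 21 regions, and the laminin gene Lamb1 rose at 9 of 16. The receptor genes Fgfr2 and Fgfr1 rose at 7 of 14 and at 5 of 11 regions in the same deposited table. The basement membrane genes Nid1 and Lamc1 fell at 15 of 18 and at 13 of 28 regions in the authors' deposited table. Gata5, a further GATA factor, had 1 region, at its promoter, which rose with a log2 fold of 6.49 (adjusted p = 1.37e-05) in the authors' deposited table.

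Over this list the median H3K27ac log2 fold of DKO over WT was -0.37 in formative cells and -0.02 in naive cells, beside -0.63 in formative and -0.10 in naive cells over all regions. By at least 1, 28 of its 216 regions above 0 were higher in formative DKO cells, against 11.2% of all, and 68 were lower, against 39.3%. In naive DKO cells 54 were higher, against 19.2% of all, and 59 were lower, against 26.3%. RNA was listed for 18 of the genes. In naive DKO cells 7 were higher than in WT by at least 1 (Col4a1, Col4a2, Amn, Foxq1, Serpinh1, Bmp2 and Runx1), against 8.54% of all genes with RNA, and Apoe was lower, against 11.2%. Amn had a log2 fold of 1.57 and the collagen gene Col4a2 1.99 in naive DKO cells. In naive CKO cells 4 were higher than in naive WT cells (Amn, Plat, Fst and Runx1), against 3.85% of all genes, and 0 were lower. Amn had a log2 fold of 2.00 and Runx1 1.55 there. In naive dCD cells 3 were higher (Col4a1, Foxq1 and Npl), against 8.05% of all genes, and 2 were lower (Lama1 and Apoe). Several of these folds start from low levels, as naive WT cells had -0.38 for Amn, -0.86 for Foxq1 and -0.62 for Bmp2. The lowest level listed for any gene was -2.29. In formative DKO cells 5 were higher, against 5.87% of all genes, and 1, Amn, was lower, against 5.05%, with a log2 fold of -1.30.

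The list for FGF/ERK, the signalling pathway that induces Gata6, held 12 genes and 138 regions. The authors' deposited table had 24 of these regions rise in WT cells, against 20.8% of all regions, and 37 fall, against 15.8%, and at Fgf4, the ligand made by epiblast cells, 7 of 7 fell. In naive DKO cells RNA of 5 of the 10 listed genes was lower by at least 1 than in WT, namely the feedback inhibitors Dusp6 (log2 fold -1.40), Spry2 (-1.53) and Spry4 (-2.24) and the ERK-induced factors Etv4 (-1.26) and Etv5 (-1.24), against 11.2% of all genes, and 0 were higher. Spry4 had a low log2 level of -1.25 in naive DKO cells, where the lowest listed for any gene was -2.29. In naive dCD cells 0 were higher and 0 lower than in naive WT cells by that fold. In naive CKO cells 1, Etv4 (1.61), was higher, against 3.85% of all genes, and 0 were lower. In formative DKO cells 1, Spry4, was higher and 0 were lower. Fgfr1 and Fgfr2 are in both this list and the list of other primitive endoderm genes.

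Markers of other cell states that the cultures could hold were read beside these genes. H3K27ac at regions of naive pluripotency genes changed in WT formative cells, where 92 of 154 fell, against 15.8% of all regions, and 8 rose, against 20.8%, in the authors' deposited table, and RNA of 10 of 12 was lower there by at least 1, against 9.65% of all genes. Trophoblast markers with RNA, 6 of 10, had 4 members higher in naive DKO than in WT cells: Gata2 (log2 fold 2.79), Krt7 (3.29), Krt8 (1.71) and Krt18 (2.95), against 8.54% of all genes, and 0 lower. The same 4 were higher in naive dCD than in naive WT cells, with log2 folds of 2.07 for Gata2, 1.77 for Krt7, 1.03 for Krt8 and 2.32 for Krt18, against 8.05% of all genes. The keratins were not particular to these groups. In WT cells Krt7 (log2 fold 3.44), Krt8 (1.02), Krt18 (2.64) and Hand1 (1.12) were higher in formative than naive cells, against 17.1% of all genes. Tfap2c (-2.49) was lower there, against 9.65%, and Gata2 had -0.004. Krt7 had a log2 level of 1.69 in naive DKO and 1.84 in formative WT cells. The summed RNA of all 6 trophoblast markers with RNA, on a log2 scale, was 7.77 in naive DKO against 7.07 in naive WT cells. This sum includes Tfap2c, the highest of the 6, at 7.17 in naive DKO and 6.92 in naive WT cells. It ranged from 6.18 to 7.77 over the 8 groups, with Hand1 at or below 0.36 in the WT and DKO groups. Mesendoderm markers with RNA, 4 of 9, summed to 3.19 in formative DKO against 4.22 in formative WT cells and 3.70 in naive DKO against 3.60 in naive WT cells. Fibroblast markers with RNA, 4 of 9, summed to between 1.70 and 4.03 on the log2 scale over the 8 groups, with 2.32 in naive DKO against 2.25 in naive WT cells. Of these 4, Fbn1 (log2 fold 2.29) and Col1a2 (1.39) were higher in naive DKO than in WT cells, against 8.54% of all genes, and Pdgfrb (-3.12) was lower, against 11.2%. Some of these marker folds rest on low levels, with -1.59 for both Krt7 and Col1a2 and -0.68 for Fbn1 in naive WT cells. Pdgfrb had -1.73 in naive DKO cells, and the lowest level listed for any gene was -2.29. In naive dCD cells Fbn1 (1.75) and Col1a2 (1.58) were also higher than in naive WT cells, against 8.05% of all genes. Thy1 was lower there, with a log2 fold of -2.05 and a level of -1.81. Of 31 mesendoderm regions 8 rose and 4 fell, of 49 trophoblast regions 11 rose and 13 fell, and of 18 fibroblast regions 4 rose and 3 fell, all in WT cells by the authors' deposited table, where 20.8% of all regions rose and 15.8% fell. These trophoblast and fibroblast markers differed in the same naive DKO and naive dCD groups in which Dab2 RNA was higher. The trophoblast markers Krt7 (log2 fold 1.05) and Krt18 (1.11) were also higher in naive CKO than in naive WT cells, against 3.85% of all genes, and 0 were lower. Dab2 had a log2 fold of -0.45 in that group. The part of these markers in the Dab2 values was not tested.

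For the distance limit of 100000 bases, the outermost region inside it was Cubn at 81.6 kb. Just outside lay Sox17 at 101192 bases upstream, with 5.74 in formative DKO, 8.09 in formative WT, 5.37 in naive DKO and 4.88 in naive WT cells, and Gata6 at 115987 bases upstream, with 9.05 in formative DKO, 9.20 in formative WT, 4.90 in naive DKO and 3.59 in naive WT cells. The third, Gata6 at 131834 bases upstream, had 7.60 in formative DKO, 8.69 in formative WT, 6.20 in naive DKO and 6.57 in naive WT cells.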

How the data were processed

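The 9 genes and the gene lists were chosen with earlier results of these data known. The submitters' processing notes name deepTools, DiffBind, SEACR, Bowtie2 and Trim Galore and the build mm10. Which step each tool served, and its version, is not given in the sources used here. A single table was deposited, with 112137 regions and 47 columns. Its H3K27ac, H3K4me1 and RNA columns are deposited log2 values, pooled by the authors to 1 per group, and the scaling between groups and the RNA unit are not stated. The deposited DiffBind columns hold log2 folds, p-values and adjusted p-values, and other descriptors deposited by the authors (width, distance, annotation, nearest gene) were used as given. The deposited log2 folds equalled differences of the level columns to within 9.8e-06.

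The planned count tests need values per library, which pooled columns do not give. DKO comparisons were therefore called at an absolute log2 fold of 1 (2-fold), over the 105643 regions above 0 in all 4 H3K27ac groups (111990 for H3K4me1), and formative against naive WT at the authors' DiffBind adjusted p under 0.05, adjusted over all regions. Each RNA value was taken once per gene. All 9 genes are described. Values in all 4 groups are given for each gene's promoter region, its region of largest concentration and, among regions above the median level, those of largest pooled fold. The other regions are given by value or range. The 5 genes of most similar RNA were ranked by Pearson r. Lists were counted without selection of members.

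Alternatives were 4 scalings (equal sums, equal promoter medians, quantile normalization, loess offset with a span of 0.3), a log2 fold of 2, an adjusted p of 0.01, inclusion of regions at 0 and a distance of 50000 bases. Gene overlaps came from GENCODE M21, and promoter sequences from RefSeq, both on GRCm38.p6. The counting was tested on simulated data. Python 3.11.15, numpy 2.4.6, pandas 2.3.3 and statsmodels 0.14.6 were used.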

Additional observations from a re-analysis of the deposited data

Results flagged for a closer look

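At 3 regions the pooled H3K27ac changed between states by at least 1 on the log2 scale in each genotype, one way in DKO cells and the other way in WT cells, against 6.82% of all regions. Counting changes of any size, 7 of the 23 regions above 0 in all groups went opposite ways, against 39.4% of all regions. The log2 change of formative minus naive was lower in DKO than in WT cells by a difference of -3.72 at Gata6 12.4 kb upstream, -3.83 at Sox7 27.7 kb upstream and -2.44 at the Pdgfra promoter. The Pdgfra change in DKO cells was -0.91, -0.95 and -0.87 with equal sums, promoter medians and quantile normalization, short of that fold. Each rests on 1 pooled value per group, and the difference was not tested.

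Dab2 RNA was higher in formative than naive WT cells and lower in formative than naive dCD cells, with a difference of dCD minus WT of -3.06 on the log2 scale. It rests on 1 value per group from libraries outside the series and was not tested.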

How the results depend on the processing

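For naive DKO against WT, 3 regions higher and 7 lower as deposited became 1 and 12 with equal promoter medians and 0 and 4 at a log2 fold of 2, and 5 were higher once regions listed at 0 were included. For formative DKO against WT, 3 higher and 10 lower became 5 higher with equal sums, 1 higher with promoter medians, 7 and 6 after quantile normalization, 6 and 4 after loess, and 0 and 5 at a log2 fold of 2. Sparc at 36.1 kb reversed from a log2 fold of -1.29 to 0.43 under loess in formative cells. For formative against naive DKO, 6 lower became 2 at a log2 fold of 2. For formative against naive WT, 3 lower became 1 at an adjusted p under 0.01 and 5 with pooled folds. H3K4me1 went from 2 higher and 8 lower to 0 and 0 at a log2 fold of 2 and to 0 and 13 with promoter medians subtracted in naive cells, and from 2 and 6 to 0 and 1, and to 0 and 12, in formative cells, with 1 higher within 50000 bases. Of 30 RNA folds, 8 higher and 2 lower became 2 and 0 at a log2 fold of 2. Each lower count at a stricter fold or p follows from the threshold, the shorter distance leaves fewer regions, and for the scalings the cause was not tested. At single regions 238 recomputed values kept their side of the threshold, 37 crossed it and 1 reversed.

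No paired analysis was possible because the columns used hold 1 pooled value per group, and leaving out each replicate was not run for the same reason. Depth is unknown, and at regions averaging under 50 normalized reads, 15 of the 27, single-value folds have an error that these columns do not give.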
